A study of Mus musculus with 6 samples.

Results

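The 10 genes described here are crypt stem cell genes of the mouse small intestine: the stem cell genes Lgr5, Olfm4, Ascl2 and Smoc2, the stem and progenitor markers Lrig1 and Phlda1, the Wnt feedback genes Axin2, Rnf43 and Znrf3, and the crypt transcription factor Sox9. They were taken by symbol from tables of 38561 Ensembl genes, all 10 were found, and all 10 passed the expression filter. RNA came from mucosa of the small intestine of C57BL/6J mice in 6 pools of polyA RNA. By the labels each pool held 3 mice of both sexes, 8 to 12 weeks of age, and the study's methods allow more mice per pool and older ones. The labels put 3 pools in a group named Rbm47_IKO, for which the study's methods describe deletion of Rbm47, the gene of an RNA-binding protein, in intestinal epithelium by Cre under the villin promoter, and the 3 control pools, labelled wt, are floxed mice in the study's methods. The design is one of constitutive, epithelial deletion, in which stromal and muscle cells keep the gene, and each value is an average over the mice of a pool.

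Stem cells at the base of the crypt renew the intestinal lining, and Wnt signalling maintains them. R-spondins bind Lgr4 and Lgr5 and remove Rnf43 and Znrf3, a pair of ubiquitin ligases that take Frizzled receptors off the cell surface, so that Wnt signalling through beta-catenin and TCF factors is sustained. Axin2, Rnf43 and Znrf3 are themselves Wnt targets and act back on the pathway as inhibitors. Olfm4, in contrast, is a secreted glycoprotein that marks the same cells and depends on Notch activity.

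Total counts ran from 31560320 to 38951830 per pool. Rbm47 itself showed no reduction in the pools with the Rbm47_IKO label (IKO-labelled pools), with normalized CPM (counts scaled to the library size) of 602.7, 624.6 and 619.8 against 459.8, 449.9 and 472.1 in control pools (log2 fold change 0.42, standard error (SE) 0.10, edgeR adjusted p = 0.0751). The level of the targeted gene goes against the label, so every direction below is one between labelled groups. These counts cover the gene as a whole and do not single out the deleted stretch. Markers of smooth muscle, a non-epithelial tissue, were high in labelled Rbm47-IKO pool 3 and control pool 2. The summed CPM of 6 such markers was 360.9, 585.7 and 3302 in IKO-labelled pools and 90.7, 2803 and 313.1 in control pools, with none of the 6 at 0. Epithelial markers were abundant in every pool. The enterocyte markers summed to 41411 to 45987 CPM in IKO-labelled pools and 46972 to 49603 in control pools, without overlap. Single enterocyte markers went both ways. Of 10 tested, 5 had a log2 fold change above 0 and 5 below (median -0.04), and 0 passed an edgeR adjusted p of 0.05. Pools did not overlap for 1 that was higher in IKO-labelled pools, against 11.7% of all genes, and for 3 that were lower, against 11.6%. The 3 lower ones were Apoa4, Sis and Slc5a1. Their mean CPM was 3361, 7495 and 5127 in IKO-labelled pools against 6762, 9843 and 6885 in controls. The higher one, Fabp2, had 8203 against 5774. Mki67, a marker of dividing cells, was at 67.7 to 134.2 CPM. In such bulk RNA, fewer stem cells and less RNA per stem cell cannot be told apart.

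Across the 10 genes, Olfm4 was lower and Phlda1, Lrig1, Rnf43 and Znrf3 were higher in each IKO-labelled pool than in each control pool, while Lgr5, Ascl2, Smoc2, Axin2 and Sox9 overlapped between groups. In edgeR's quasi-likelihood test adjusted over 16425 genes, 0 of the 10 passed an adjusted p of 0.05, against 2.70% of all genes tested (1.45% higher and 1.25% lower). At an unadjusted p under 0.05 there were 5 of 10, against 16.8% of all genes, and DESeq2 called 1 of 10, Olfm4, against 7.57%. Pools did not overlap for 4 genes that were higher, against 11.7% of all genes, for 1 that was lower, against 11.6%, and so for 5 of 10 in all, against 23.3%. Fitted log2 fold changes were above 0 for 8 genes and below 0 for 2, with a median of 0.29 over the 10 genes and of -0.01 over all genes tested.

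**Figure D1:**
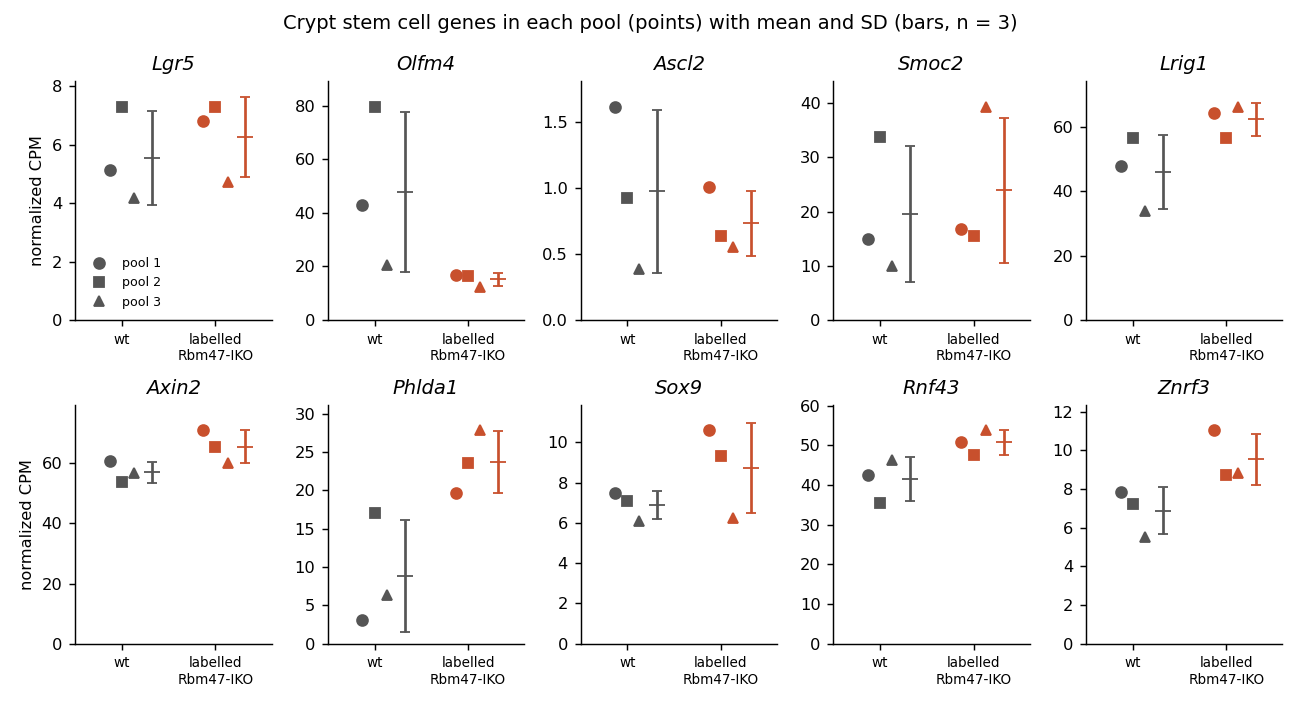
Normalized CPM of each of the 10 genes (vertical axes, linear from 0) in the 3 control pools (grey) and the 3 pools labelled Rbm47-IKO (orange), with the symbol giving the pool number and bars the mean and SD. Olfm4 lies at 12.3 to 16.8 in the labelled pools and at 20.7 to 79.7 in control pools, and Phlda1 at 19.6 to 27.8 against 3.06 to 17.0.

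Lgr5, the R-spondin receptor that defines cycling crypt base stem cells (ENSMUSG00000020140, chr10:115450311-115587780, minus strand), had 236, 276 and 154 counts in IKO-labelled pools and 174, 277 and 152 in control pools. As normalized CPM these were 6.82, 7.29 and 4.72 against 5.12, 7.30 and 4.17. The groups overlapped throughout, and in both the pool numbered 2 was highest and the pool numbered 3 lowest. This gave a log2 fold change of 0.18 (SE 0.27, edgeR adjusted p = 0.829), with a 95% interval of -0.45 to 0.81, which leaves room for a fold of 0.734 to 1.76.

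Olfm4 (ENSMUSG00000022026, chr14:80000302-80021930, plus strand) was lower in every IKO-labelled pool. Its normalized CPM was 16.8, 16.4 and 12.3 in IKO-labelled pools. In control pools it was 43.0, 79.7 and 20.7, so that the control pools spread over a 3.85-fold range and the labelled pools over a 1.37-fold range, with no overlap between them. The fitted log2 fold change was -1.65 (SE 0.43, 95% interval -2.66 to -0.65, edgeR adjusted p = 0.0974), or 3.15-fold more in controls. DESeq2 put the same gene past the threshold (log2 fold change -1.65, adjusted p = 0.000345). Without control pool 2, the pool with the most Olfm4, the log2 fold change was -1.06 (edgeR adjusted p = 0.110).

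Because Lgr5 and Olfm4 mark the same cells, their ratio within a pool was also compared. Olfm4 CPM was 2.47, 2.25 and 2.61 times that of Lgr5 in IKO-labelled pools and 8.40, 10.9 and 4.95 times in control pools. The ratio thus varied little among the labelled pools, and each of them was below each control pool (difference of log2 ratios -1.66, two-sided exact permutation p = 0.1, the smallest that 3 pools against 3 can give). The ratio does not depend on the scaling of a library.

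Paneth cells, which neighbour these stem cells, were followed through 12 markers. Their summed CPM was 996.9, 1148 and 633.2 in IKO-labelled pools and 2212, 1557 and 607.5 in control pools, so that the groups overlapped. Lyz1, the lysozyme of Paneth cells, had 332.3, 360.2 and 216.7 against 1086, 606.9 and 236.5 CPM (log2 fold change -1.09, edgeR adjusted p = 0.315). Of 11 Paneth markers tested 0 passed the threshold, 10 had a log2 fold change below 0, and 1 of the 12 was at 0 in all pools. Control pool 3 was lowest among controls in both Olfm4 and the Paneth sum, but also in Lgr5, Ascl2, Smoc2, Lrig1, Sox9 and Znrf3. Among controls the Paneth sum was highest in pool 1 and Olfm4 in pool 2. The part of Paneth cell content in the Olfm4 difference was not tested.

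The 300 bases around the start of Olfm4, 250 before it and 50 after, are given because a motif of an inflammatory factor lies close to the start. They are from RefSeq (GRCm38.p6, chr14:80000052-80000351, plus strand), 5′ to 3′, and capitals mark a pair of overlapping matches to the NF-kB consensus, which begin 52 and 51 bases before the start.
Olfm4 promoter: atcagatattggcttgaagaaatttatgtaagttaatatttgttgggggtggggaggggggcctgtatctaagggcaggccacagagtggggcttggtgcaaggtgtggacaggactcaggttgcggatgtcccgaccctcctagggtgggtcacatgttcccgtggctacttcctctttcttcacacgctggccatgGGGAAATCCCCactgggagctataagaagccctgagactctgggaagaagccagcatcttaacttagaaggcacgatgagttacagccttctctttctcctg
The consensus was found in 8.46% of 32851 promoter windows of this length. Windows were present for 5 of the 10 genes (Olfm4, Ascl2, Lrig1, Axin2 and Rnf43, the last with 2 starts), and Olfm4 was the only one of the 5 with such a match. The TCF motif, searched on both strands as CTTTGAT and its variants ending in AA, TT or TA, was in 0 of these 6 windows and in 16.9% of all windows. A match is a description of letters only, and a window without one says nothing about the factor.

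Ascl2, a transcription factor that works with Wnt signals to hold stem cell identity (ENSMUSG00000009248, chr7:142966822-142969264, minus strand), was the gene with the fewest counts. It had 35, 24 and 18 counts in IKO-labelled pools and 55, 35 and 14 in control pools, or 1.01, 0.63 and 0.55 against 1.62, 0.92 and 0.38 normalized CPM. The control pools held both the highest and the lowest value. Its log2 fold change was -0.41 (SE 0.54, 95% interval -1.66 to 0.84, edgeR adjusted p = 0.802), and it was 0.16 without control pool 1. The ratio of Ascl2 to Lgr5 was 0.148, 0.0870 and 0.117 against 0.316, 0.126 and 0.0921 (two-sided exact permutation p = 0.6).

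Smoc2, a secreted matrix protein of the Lgr5 stem cell signature (ENSMUSG00000023886, chr17:14279506-14404790, plus strand), differed more between pools of a labelled group than between the labelled groups. Its normalized CPM was 16.8, 15.6 and 39.3 in IKO-labelled pools and 15.0, 33.8 and 9.91 in control pools. The high values are those of the 2 pools rich in smooth muscle markers. Smoc2 in these was 2.43 and 2.72 times the mean of the other pools of the labelled group, and the summed muscle markers were 6.98 and 13.9 times. This gave a log2 fold change of 0.29 (SE 0.51, 95% interval -0.89 to 1.47, edgeR adjusted p = 0.861). It was -0.27 without labelled pool 3, -0.02 without control pool 3 and -0.03 with the muscle sum as a covariate, so that its direction was not fixed by these data.

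**Figure D2:**
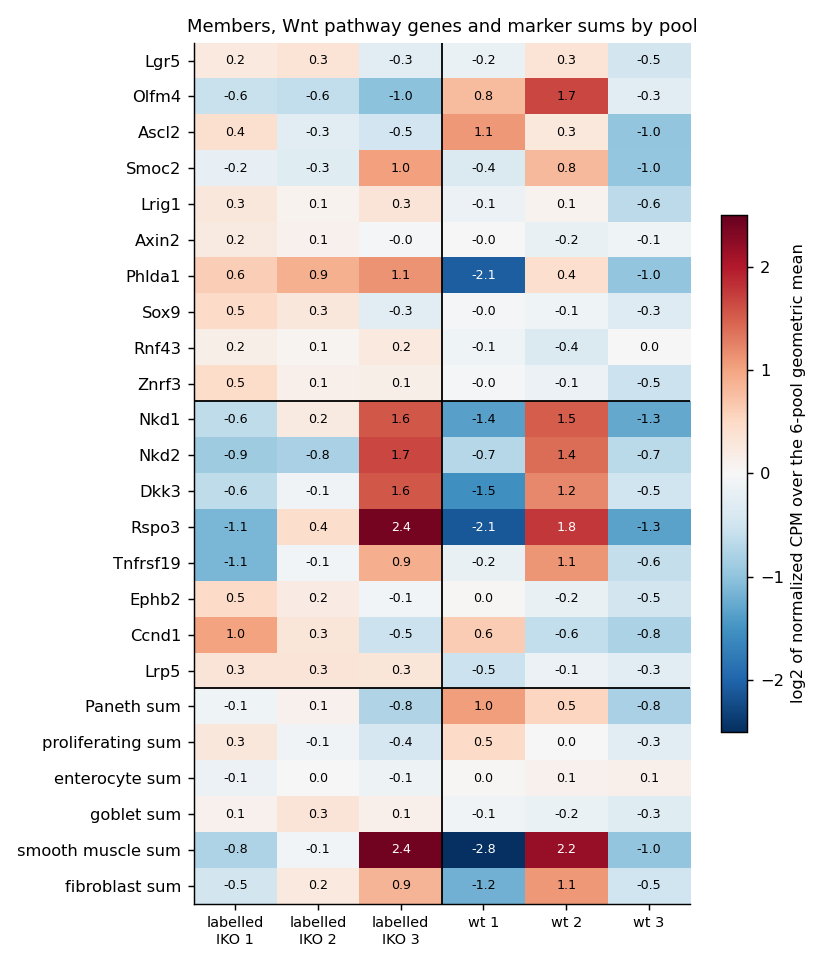
Each cell gives, for a gene or a summed marker list (rows) in a pool (columns), the log2 of its normalized CPM over the geometric mean of the 6 pools; lines separate the 10 genes, 8 other Wnt pathway genes chosen after their values were seen, and the marker sums. Smoc2, Nkd1, Nkd2, Dkk3, Rspo3 and the muscle sum are highest in labelled pool 3 and control pool 2, whereas Axin2 stays between 53.6 and 70.9 CPM in all pools.

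Lrig1 is a transmembrane brake on ErbB receptors and marks crypt cells that divide less often. It lies at chr6:94604529-94700158 on the minus strand (ENSMUSG00000030029). Its normalized CPM was 64.3, 56.5 and 66.2 in IKO-labelled pools and 47.8, 56.4 and 33.8 in control pools. The groups were separate by a narrow margin, 56.53 in labelled pool 2 against 56.36 in control pool 2. In each group the highest value was that of the pool rich in smooth muscle markers, 1.10 times the mean of the other IKO-labelled pools and 1.38 times that of the other controls. The fitted log2 fold change was 0.44 (SE 0.18, 95% interval 0.01 to 0.87, edgeR adjusted p = 0.286) and fell to 0.26 without control pool 3. In its exons 120 bases, 2.15% of them, are shared with Slc25a26 on the opposite strand, and the use of strand in counting is not given in the sources used here.

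Phlda1, a pleckstrin homology domain protein expressed in crypt stem and progenitor cells (ENSMUSG00000020205, chr10:111506286-111508645, plus strand), had the highest log2 fold change of the 10 genes in the fit of all 6 pools. It had 680, 894 and 908 counts in IKO-labelled pools and 104, 645 and 233 in control pools. As normalized CPM this was 19.6, 23.6 and 27.8 against 3.06, 17.0 and 6.39, so that all labelled pools lay above all controls and the control pools spread over a 5.56-fold range. Its log2 fold change was 1.42 (SE 0.54, 95% interval 0.18 to 2.67, edgeR adjusted p = 0.234), or 2.68-fold, with an interval of 1.13- to 6.35-fold.

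Phlda1 too was higher in the pools rich in muscle markers, by 1.29 times among labelled pools and 3.60 times among controls. Control pool 2 is the control closest to the labelled pools. Without it the log2 fold change was 2.32 and passed the threshold (edgeR adjusted p = 0.0227, 1 of the 10 genes against 2.58% of all genes). With the muscle sum as a covariate it was 1.36 (edgeR adjusted p = 0.0120), and Olfm4 passed as well (-1.69, adjusted p = 0.0323), 2 of the 10 genes against 4.33% of all genes. With both muscle-rich pools left out, which leaves 2 pools against 2, Phlda1 was again the 1 gene of the 10 past the threshold (log2 fold change 2.18, adjusted p = 0.0238), against 2.0% of all genes. The same 4 pools gave -0.94 for Olfm4 (adjusted p = 0.139) and 0.60 for Lgr5 (adjusted p = 0.182). Phlda1 kept its sign in every setting tried, from 1.02 to 2.32, and passed in 3 of them.

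**Figure D3:**
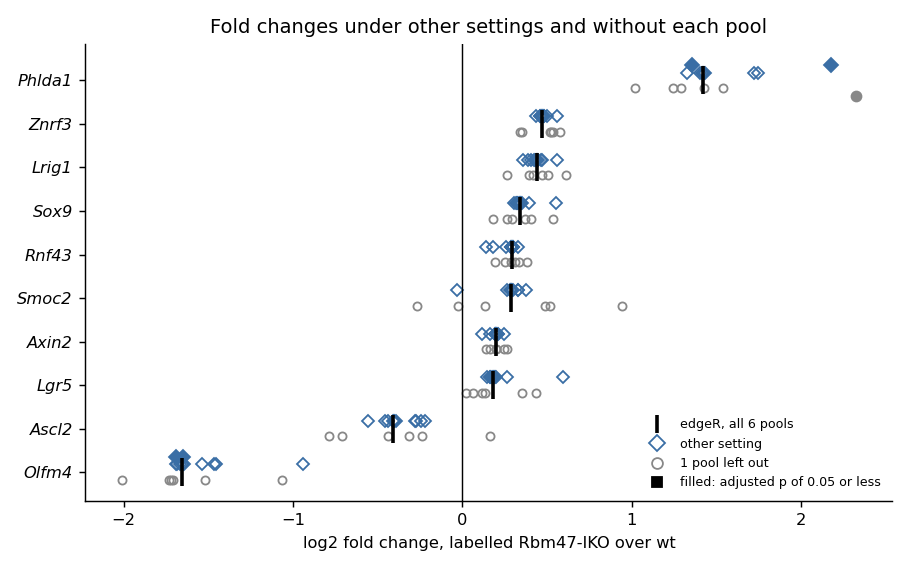
Log2 fold change of each gene, labelled Rbm47-IKO over control, in the edgeR fit of all 6 pools (black bar), in other settings (blue diamonds) and with 1 pool left out (grey circles); filled symbols mark an adjusted p of 0.05 or less. Filled symbols appear for Phlda1 and Olfm4 only, and Smoc2 and Ascl2 are the genes with points on both sides of 0.

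RBM47 is known to bind AU-rich stretches of 3′ UTRs, so these were read for the 2 genes with the largest fold changes. In GENCODE M21 the 3′ UTR of Phlda1 (transcript Phlda1-201) is 612 bases long and that of Olfm4 (Olfm4-203) 1209 bases, and each holds 3 copies of the AUUUA pentamer. The copies are printed as DNA, 5′ to 3′ on the plus strand of GRCm38, with the pentamer in capitals and 10 bases on either side.
Phlda1, chr10:111508252-111508276: agatgactttATTTAtggacctttg
Phlda1, chr10:111508304-111508328: tgtaggaacaATTTAtgtactgtaa
Phlda1, chr10:111508350-111508374: gattatgattATTTAttagtttttt
Olfm4, chr14:80021974-80021998: ttctctacatATTTAgacagcttca
Olfm4, chr14:80022111-80022135: ctttggatagATTTAacaaatgaaa
Olfm4, chr14:80022369-80022393: gagagcaaatATTTAgctttgtttt
Per kb of 3′ UTR this is 4.90 copies for Phlda1 and 2.48 for Olfm4. Whether AUUUA content bears on either fold change was not tested. Over the 10 genes the median was 2.47 copies per kb of 3′ UTR, against 1.26 over 14104 tested genes with a 3′ UTR. At least 1 copy was present in 9 of the 10, or 90.0%, against 69.1% of the tested genes, and Ascl2 was the gene without one. Lgr5 had 8 copies in 1703 bases, Sox9 had 6 in 2250 and Znrf3 had 12 in 3400. The gene model of the deposited tables stops at base 80021930 of chromosome 14, before the Olfm4 3′ UTR of GENCODE M21, so reads from that UTR are not in the Olfm4 counts.

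The 3 Wnt feedback genes had small log2 fold changes, all above 0. Axin2, a scaffold of the complex that degrades beta-catenin and a standard readout of Wnt activity (ENSMUSG00000000142, chr11:108920349-108950783, plus strand), had 70.9, 65.4 and 60.0 normalized CPM in IKO-labelled pools and 60.6, 53.6 and 56.7 in control pools. Labelled pool 3 lay just under control pool 1, and the log2 fold change was 0.20 (SE 0.11, 95% interval -0.05 to 0.45, edgeR adjusted p = 0.403). With an offset for GC content, added after the data were seen, it was 0.11 (edgeR adjusted p = 0.758). In the fit without this offset Axin2 had the smallest standard error of the 10 genes, and its interval leaves room for at most a 1.36-fold increase. The antisense gene Gm11670 shares 209 exonic bases with it, 3.80% of the exons.

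Rnf43 (ENSMUSG00000034177, chr11:87662722-87735539, plus strand) had 50.8, 47.6 and 53.8 normalized CPM in IKO-labelled pools and 42.6, 35.5 and 46.3 in control pools. The lowest labelled pool was above the highest control pool, with a log2 fold change of 0.29 (SE 0.12, 95% interval 0.00 to 0.58, edgeR adjusted p = 0.293). With an offset for GC content, added after the data were seen, it was 0.18 (adjusted p = 0.666).

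Znrf3, the close relative of Rnf43 (ENSMUSG00000041961, chr11:5276324-5444847, minus strand), was present at lower counts, 382, 330 and 289 in IKO-labelled pools and 267, 275 and 201 in control pools. In normalized CPM it had 11.0, 8.71 and 8.85 against 7.85, 7.25 and 5.52, again without overlap. This gave a log2 fold change of 0.47 (SE 0.19, 95% interval 0.02 to 0.92, edgeR adjusted p = 0.276). The ratio of Rnf43 to Znrf3 CPM was 4.61, 5.46 and 6.07 against 5.42, 4.90 and 8.39, which overlapped (difference of log2 ratios -0.18, two-sided exact permutation p = 0.7).

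Sox9, a transcription factor of crypt progenitors and Paneth cells (ENSMUSG00000000567, chr11:112782224-112787760, plus strand), had 10.6, 9.35 and 6.25 normalized CPM in IKO-labelled pools and 7.47, 7.11 and 6.09 in control pools. The first pair of labelled pools was above all controls and the third among them. The fitted log2 fold change was 0.34 (SE 0.22, 95% interval -0.18 to 0.86, edgeR adjusted p = 0.523).

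**Figure D4:**
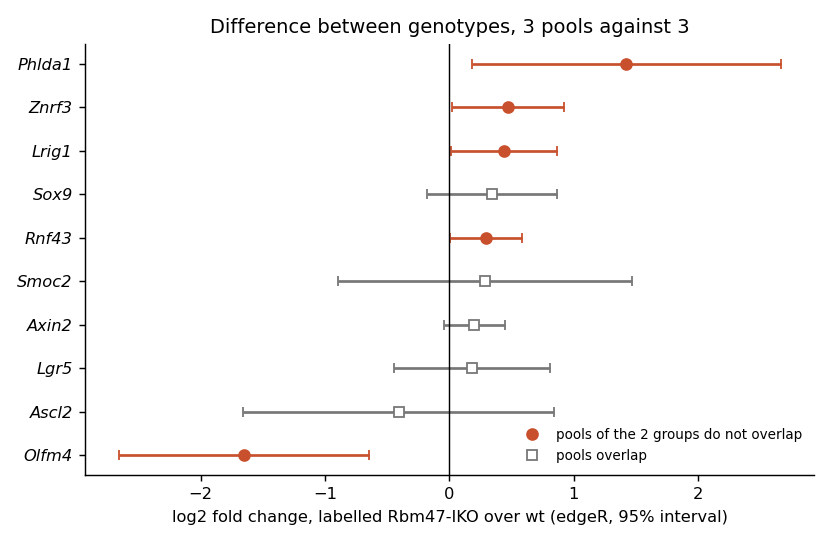
Log2 fold change of the 10 genes, labelled Rbm47-IKO over control, with 95% intervals from edgeR and 3 pools per group; orange circles are genes whose pools do not overlap and open squares those whose pools do. Olfm4 (-1.65) and Phlda1 (1.42) lie farthest from 0, and the other 8 genes lie between -0.41 and 0.47.

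**Figure D5:**
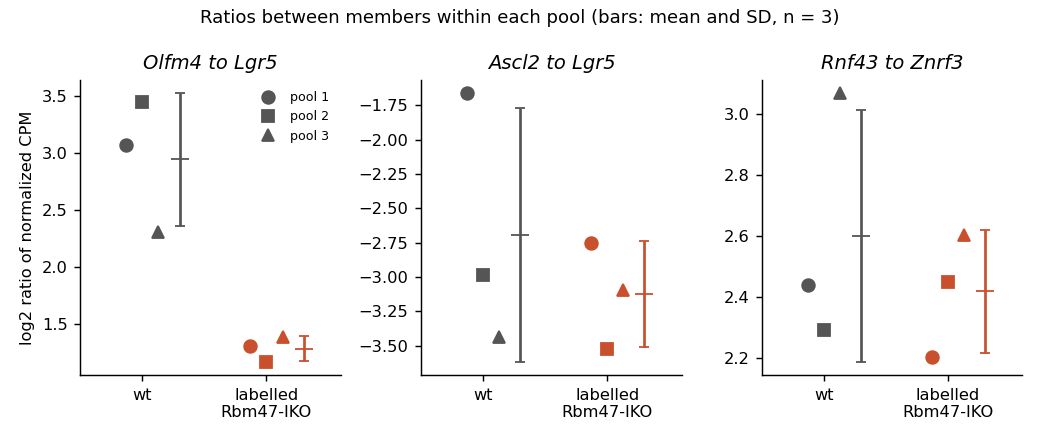
Log2 ratio of normalized CPM of a pair of genes within each pool, for control pools (grey) and pools labelled Rbm47-IKO (orange), with the mean and SD of 3 pools as bars and the symbol giving the pool number. Olfm4 to Lgr5 separates the groups, with 2.25 to 2.61 against 4.95 to 10.9 before the log, and the other ratios overlap.

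The genes also differed in how evenly they were measured. Among control pools the SD was 6.16% of the mean for Axin2, 10.4% for Sox9, 13.2% for Rnf43 and 17.6% for Znrf3, and 62.4% for Olfm4, 63.4% for Ascl2, 64.4% for Smoc2 and 82.5% for Phlda1. In IKO-labelled pools it was 6.06% for Rnf43, 8.33% for Axin2, 13.7% for Znrf3, 16.4% for Olfm4, 17.2% for Phlda1, 25.7% for Sox9 and 55.9% for Smoc2. For Lrig1 it was 24.8% in controls and 8.25% in IKO-labelled pools, for Lgr5 29.0% and 21.8%, and for Ascl2 33.5% in IKO-labelled pools. By this measure 8 of the 10 genes, all but Axin2 and Sox9, had more spread among control pools than among IKO-labelled pools, a difference that was not tested.

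Levels were compared between genes as normalized CPM per kb of the gene length in the tables. In control pools Olfm4 was first with 29.1 ± 18.2 (SD, n = 3), followed by Axin2 with 10.3 ± 0.637 and Lrig1 with 8.23 ± 2.04. Smoc2 (6.91 ± 4.45), Rnf43 (6.32 ± 0.834) and Phlda1 (4.52 ± 3.73) came next, then Sox9 (1.67 ± 0.173). Znrf3 (0.871 ± 0.154), Ascl2 (0.605 ± 0.384) and Lgr5 (0.539 ± 0.156) were at the end of the order. Neighbours in this order overlapped between pools except Olfm4 with Axin2 and Sox9 with Znrf3. In IKO-labelled pools Phlda1 was first with 12.2 ± 2.10, next to Axin2 with 11.9 ± 0.991 and Lrig1 with 11.2 ± 0.921, and Olfm4 had 9.25 ± 1.52. The length in the tables is 10264 bases for Lgr5, whose longest coding transcript in GENCODE M21 has 4714. With the coding length the control level of Lgr5 was 1.17 ± 0.340 per kb, above Znrf3 (1.09 ± 0.192) and Ascl2 (0.607 ± 0.385), and that of Olfm4 was 17.1 ± 10.6. In IKO-labelled pools the coding length put Axin2 first with 15.4 ± 1.28, then Lrig1 with 12.6 ± 1.04 and Phlda1 with 12.2 ± 2.10, and Olfm4 sixth with 5.42 ± 0.889. Since the 3′ UTR of Olfm4 is not counted, its coding length understates its level.

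The study also lists qPCR primers for 5 of the 10 genes (Sox9, Phlda1, Lrig1, Lgr5 and Smoc2). Pairs for 2 of them are shown, 5′ to 3′, since they mark the stretch of each mRNA that such an assay reads, whereas counts cover all exons.
Lgr5 forward: gcgcctagatgccaacca
Lgr5 reverse: agtgcaggccgctgaaac
Phlda1 forward: ggctggaacgccgagat
Phlda1 reverse: gtatggcctggcgatttttg
The Lgr5 pair spans bases 716 to 774 of Lgr5-201, a product of 59 bases, and is found in 4 transcripts of the gene. The Phlda1 pair spans bases 912 to 969 of Phlda1-201, a product of 58 bases.

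Of 16 other genes of the Lgr5 stem cell signature, 15 were tested and 0 passed in edgeR, 2 at an unadjusted p under 0.05, with a median log2 fold change of 0.03. Ets2, a transcription factor, had 179.8, 181.3 and 157.8 normalized CPM in IKO-labelled pools and 139.3, 138.6 and 151.7 in controls (log2 fold change 0.27, edgeR adjusted p = 0.245). Ephb2, the receptor that positions cells along the crypt, had 0.41 (adjusted p = 0.290), and Prom1, a membrane glycoprotein, had -0.34 (adjusted p = 0.321). The reserve stem cell genes Bmi1, Hopx and Tert had log2 fold changes of -0.07, 0.04 and -0.48, with 0 of 3 called (adjusted p of 0.382 for Tert). Of 7 genes of the regenerating epithelium 6 were tested and 0 passed. Clu, which marks revival stem cells after injury, had -0.77 (edgeR adjusted p = 0.359), Anxa3 0.34 (adjusted p = 0.629) and Il1rn 0.31 (adjusted p = 0.745).

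In the receptor complex that receives Wnt and R-spondin signals, 1 of 7 tested genes passed. Lrp5, a Wnt co-receptor, rose, with 180.0, 180.9 and 176.5 normalized CPM in IKO-labelled pools against 98.9, 130.3 and 119.9 in control pools (log2 fold change 0.62, SE 0.12, edgeR adjusted p = 0.0455). All labelled pools were above all controls. With 1 pool left out its log2 fold change was 0.52 to 0.71, and the adjusted p was 0.0399 without control pool 2 and 0.0652 to 0.231 without each other pool, both controls and IKO-labelled pools. Lrp5 also missed the threshold with RLE normalization (0.0574), the GC offset (0.0833), the pools low in muscle (0.0629) and the pool number as a replicate block (0.0961). The related co-receptor Lrp6 had -0.19 (adjusted p = 0.414) and the Wnt receptor Fzd7 had 0.44 (adjusted p = 0.206). The median over the 7 was 0.44. Lgr6, Rspo2 and Rspo4 were below the expression filter. Rspo3 was highest in the muscle-rich pools, with 4.01 CPM in labelled pool 3 and 2.61 in control pool 2 against at most 1.03 in the other pools.

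Of 16 genes of the beta-catenin machinery 0 passed, with a median of 0.03. Pygo2, a coactivator of beta-catenin, had 0.31 (edgeR adjusted p = 0.169), Tcf7l2, the main TCF factor of the intestine, 0.34 (adjusted p = 0.194), and Apc, the scaffold lost in intestinal tumours, -0.31 (adjusted p = 0.311). A list of 17 Wnt targets and feedback inhibitors shares genes with the lists above, among them Ephb2, Cd44, Tcf7 and Lef1. Of these 17, 14 were tested and 0 passed, with a median of 0.13. Besides Ephb2, the smallest p-values were those of the transcription factors Sp5 (-0.57, adjusted p = 0.467) and Myc (0.44, adjusted p = 0.474). The Wnt inhibitors Nkd1, Nkd2, Dkk2 and Dkk3 were, like Smoc2, highest in the muscle-rich pools. Nkd2, for example, had 24.0 CPM in labelled pool 3 and 19.9 in control pool 2, against 4.07 to 4.69 in the other 4 pools. Over all genes tested 2.70% passed.

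Other cell types and positions along the gut were also followed by their markers. Goblet cell markers summed to 22164 to 25638 CPM in IKO-labelled pools and 16603 to 19465 in controls, and enteroendocrine markers to 151.8 to 163.7 against 203.7 to 256.4, without overlap in either. Of 8 goblet markers 0 passed the test, 7 had a log2 fold change above 0 and 1 below. The mucin gene Muc2 overlapped, with 1660, 1769 and 1647 CPM in IKO-labelled pools against 1735, 1213 and 1319 (log2 fold change 0.25, edgeR adjusted p = 0.504). For 2 of the 8, Fcgbp and Clca1, each IKO-labelled pool was above each control pool, against 11.7% of all genes. These were also the 2 most abundant in the sum. Mean CPM was 14330 in IKO-labelled pools against 11092 in controls for Fcgbp, and 3855 against 2542 for Clca1. The other goblet markers overlapped. Of 10 enteroendocrine markers 1 passed the test, against 2.70% of all genes. It was the ghrelin gene Ghrl, which was lower in IKO-labelled pools (log2 fold change -1.44, edgeR adjusted p = 0.0393). Of the 10, 9 had a log2 fold change below 0 and 1 above. For 5 of them each IKO-labelled pool was below each control pool, against 11.6% of all genes. Proliferation markers summed to 186.7 to 304.4 against 209.1 to 346.7, and fibroblast markers to 138.8 to 346.9 against 82.7 to 403.0, both with overlap. Markers of the proximal small intestine summed to 333.7 to 355.7 CPM in IKO-labelled pools and 252.6 to 333.3 in controls, without overlap. Those of the distal small intestine summed to 950.9 to 1188 against 691.1 to 1121, and those of the colon to 28.1 to 30.2 against 15.9 to 38.9, both with overlap. Of 5 proximal and 5 distal markers, 4 in each list had a log2 fold change above 0 and 1 below, and 0 passed. Fabp6, an ileal bile acid binding protein, had 31.7, 39.8 and 18.6 CPM against 17.2, 3.98 and 2.55 (log2 fold change 1.93, edgeR adjusted p = 0.201). Gata4, which marks the proximal small intestine, had a log2 fold change of 0.42 (adjusted p = 0.170), and Hoxb13, a gene of the hindgut, had 2.60, 3.54 and 5.18 CPM against 0, 0.55 and 0.30 (adjusted p = 0.0708). The part of these cell types, or of the position sampled, in the differences of the 10 genes was not tested.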

How the data were processed

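For each pool the authors deposited reads counted on 38561 Ensembl genes, not normalized, with the CPM and RPKM they derived from these counts. The deposited CPM and RPKM were recomputed from the counts, differed by less than rounding and were not used further. The submitters' processing notes name STAR 2.5.1a, Subread, featureCounts 1.4.6-p5 and GRCm38. Symbols and transcripts are from GENCODE M21, which held 36639 of the genes (the rest had 0.369% of counts).

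Counts were tested with edgeR 4.0.16 (filterByExpr, TMM, quasi-likelihood; 16425 genes; Benjamini-Hochberg adjusted p of 0.05 or less) in R 4.3.3, with DESeq2 1.42.0 and limma 3.58.1 as alternatives. CPM values use TMM library sizes. The fit was tested on simulated data with 200 changed genes. The labels give 3 mice to each pool, and the study's methods describe pools of separate mice. Pools were treated as independent, and p-values measure the spread between pools. The genes named are the 10 genes, Rbm47 and each gene of the 6 pathway lists past the test. Where fewer than 3 passed, the 3 with the smallest p are also named. Marker lists are given as sums with their defining markers, except that Myh11 and Col1a1 appear only within their sums. Ghrl, Rspo3, the Nkd and Dkk genes and the 8 pathway genes drawn by pool were chosen after their values were seen. So were the single enterocyte and goblet markers other than Alpi and Muc2. The 10 genes and all lists were chosen with earlier results of these data known.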

Additional observations from a re-analysis of the deposited data

How the results depend on the processing

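The 443 genes called by edgeR became 1243 with DESeq2, 777 with a filter of 100 counts, 711 with the smooth muscle covariate, 266 with the GC offset and 100 with pool number as a replicate block, and 0 to 431 with 1 pool left out (0 without IKO-labelled pool 2, where 1729 genes had an unadjusted p under 0.05, 32 without labelled pool 1, 119 without labelled pool 3 and 11 without control pool 3). The number of the 10 genes called, 0 in edgeR with all pools, was 1 with DESeq2, 2 with the muscle covariate, 1 in the 4 pools low in smooth muscle and 0 to 1 with 1 pool left out. Olfm4 passed with DESeq2 (-1.65) and the muscle covariate (-1.69). Phlda1 passed with the covariate (1.36) and in the 4 pools low in muscle (2.18), and ranged from 1.02 to 2.32 with 1 pool left out. Smoc2 was -0.0303 with the covariate and -0.27 to 0.94 with 1 pool left out, Ascl2 -0.79 to 0.16, the log2 ratio of Rnf43 to Znrf3 -0.33 to 0.0535 and that of Ascl2 to Lgr5 -0.80 to 0.0879. Rbm47 passed with DESeq2 (0.41, adjusted p = 0.00105), library size alone (0.41, adjusted p = 0.0473) and the 100-count filter (0.42, adjusted p = 0.0394). The cause of these changes was not tested. The other 6 genes (Lgr5, Lrig1, Axin2, Sox9, Rnf43 and Znrf3) kept their direction and did not pass in any setting. With 1 pool left out their log2 fold changes were 0.02 to 0.44 for Lgr5, 0.26 to 0.61 for Lrig1 and 0.14 to 0.26 for Axin2. They were 0.18 to 0.54 for Sox9, 0.19 to 0.38 for Rnf43 and 0.34 to 0.58 for Znrf3. The GC offset and the fit to the pools low in muscle were added after the data were seen. The correlation of deviations between pools of the same number was 0.42 for number 1, -0.04 for number 2 and -0.32 for number 3, so the numbers were not taken as pairs, and with the replicate block 0 of the 10 genes were called. Ascl2 has no value with the 100-count filter. The fewest counts were those of Ascl2, 14 to 55 per pool.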
